A study of Mus musculus with 13 samples.

Results

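Spp1, Gpnmb, Trem2, Apoe, Fabp5, Cd9, Cd63, Lgals3 and Tm4sf19 are genes that mark scar-associated macrophages, the macrophages found in fibrotic tissue. These 9 genes were taken by symbol from the 20270 genes of the deposited count and TPM tables, and all 9 were present and passed the filter on low counts. Tm4sf19 passed it only through bleomycin libraries, the groups where it was high. The group was chosen by measured values in part, because Spp1 and Gpnmb moved in opposite directions between CB1R knockout and wildtype bleomycin lungs in these libraries. All values that compare CB1R knockout with wildtype bleomycin lungs are therefore given for these genes as a description without a test.

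Lung RNA was sequenced from 13 mice in 3 groups. The control group held 4 wildtype male C57BL/6J mice, numbered 3, 21, 24 and 26, given saline as vehicle. The WT bleomycin group held 5 wildtype male C57BL/6J mice, numbered 4, 2, 5, 4-B2 and 7, and the CB1R KO bleomycin group held 4 Cnr1-/- mice on a C57Bl/6J background, numbered 8, 9, 10 and 11. Both bleomycin groups were sampled 14 days after a single oropharyngeal dose of 1 U per kg of bleomycin, an antibiotic that injures the lung epithelium and is followed by fibrosis. Wildtype mice were 13 weeks old when obtained, and neither age nor sex of the Cnr1-/- mice is given in the sources used here. The knockout is given as Cnr1-/-, with no restriction to a cell type such as macrophages named, and Cnr1 encodes the cannabinoid receptor CB1R. No knockout mice without bleomycin were analysed here. Each library is RNA of the lower right lobe of a lung, a bulk tissue in which a lower share of cells of a type and less RNA per cell cannot be told apart.

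Scar-associated macrophages arise largely from recruited monocytes, take up lipid and matrix debris, and lie next to matrix-producing fibroblasts. Spp1 encodes osteopontin, a secreted matrix protein that binds CD44 and integrins. Trem2 is a lipid-sensing surface receptor that signals through the adaptor Tyrobp and binds the lipid carrier apolipoprotein E, the product of Apoe. Gpnmb is a lysosomal and cell-surface glycoprotein, a paralogue of the melanosome protein Pmel, and its transcription is driven in macrophages by the MiT/TFE factors that control lysosomal genes. Fabp5 carries fatty acids inside the cell, Cd9 and Cd63 are tetraspanins of the cell surface and of late endosomes, Lgals3 encodes the sugar-binding protein galectin-3, and Tm4sf19 is a membrane protein known from osteoclasts and multinucleated giant cells. Apoe, Cd9, Cd63 and Lgals3 are also made by many other lung cells. The authors also refer to myofibroblasts that express SPP1 in human fibrotic lungs. Which cells held Spp1 and Fabp5 in these bulk libraries was not measured.

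The 3 genes that the results turn on have these starts in the RefSeq promoter sequences of build GRCm38.p6, shown here because Spp1 and Gpnmb differed in direction between knockout and wildtype lungs while Trem2 did not. Each run covers 200 bases before to 20 bases after the annotated start, 5′ to 3′ on the gene's strand, and lies on the plus strand at chr5:104434911-104435130 for Spp1 (the first of 2 annotated starts), chr6:49036318-49036537 for Gpnmb and chr17:48346201-48346420 for Trem2. Capitals mark matches on either strand to GAGGAA, a core of Ets factors such as PU.1, and to TGANTCA. The latter is a looser form of the AP-1 core, which has C or G at the middle base.
Spp1: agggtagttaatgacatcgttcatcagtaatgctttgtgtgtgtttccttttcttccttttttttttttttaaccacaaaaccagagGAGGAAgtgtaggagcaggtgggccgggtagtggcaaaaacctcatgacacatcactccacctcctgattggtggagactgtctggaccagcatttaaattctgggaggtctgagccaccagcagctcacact
Gpnmb: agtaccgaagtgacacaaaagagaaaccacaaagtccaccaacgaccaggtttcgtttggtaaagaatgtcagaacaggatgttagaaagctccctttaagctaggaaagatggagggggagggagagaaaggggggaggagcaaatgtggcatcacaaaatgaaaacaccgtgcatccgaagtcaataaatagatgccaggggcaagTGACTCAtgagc
Trem2: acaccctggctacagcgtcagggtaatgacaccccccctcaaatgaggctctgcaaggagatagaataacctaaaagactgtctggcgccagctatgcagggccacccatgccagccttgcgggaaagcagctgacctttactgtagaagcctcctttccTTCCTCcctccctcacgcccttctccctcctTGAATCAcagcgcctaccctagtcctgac
Counted from the start at 1 with no position 0, the GAGGAA match of Spp1 lay at -113 to -108 and that of Trem2 at -40 to -35, where it reads on the opposite strand. TGANTCA matched Gpnmb at 9 to 15 and Trem2 at -9 to -3, and did not match the Spp1 windows. The Gpnmb stretch reads TGACTCA, the AP-1 core, and the Trem2 stretch reads TGAATCA, which is not that core. CACGTG, the core bound by MiT/TFE factors, matched no window of these genes. RefSeq windows of 300 bases, with 250 bases before the start, were found for 8 of the 9 genes, 11 windows in all, and not for Fabp5. Of the 11 windows, 5 held GAGGAA, 2 held TGANTCA and 0 held CACGTG, against 28.3%, 7.81% and 7.15% of all 32851 windows in the table. The matches shown do not overlap each other, and a match is a stretch of letters, not a measured binding site.

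The deepest library was CB1R KO replicate 11 with 53463884 estimated counts, and the other 12 ranged from 14615904 to 16662580. Cnr1 was still counted in the libraries labelled CB1R KO, where it averaged 4.04 ± 1.37 CPM (SD, n = 4), CPM being counts scaled to library size. WT bleomycin lungs averaged 5.77 ± 1.38 CPM (SD, n = 5) and control lungs 2.67 ± 1.09 CPM (SD, n = 4). The deposited tables give no positions of reads along Cnr1, so this does not check the genotype. Macrophage genes were present in every library, with none of the 8 pan-macrophage markers at 0 in any group. The labels of Control 26 and of WT bleomycin 4-B2 and 7 are written in another style than the rest, and whether that marks a batch is not given in the sources used here.

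Bleomycin raised these genes in wildtype lungs. Every one of the 9 genes was higher in all 5 WT bleomycin libraries than in all 4 control libraries, and 8 passed the test as higher (edgeR's quasi-likelihood test, Benjamini-Hochberg adjusted p under 0.05 over the 15315 genes tested), Cd9 being the exception. Tm4sf19 is counted among the 8, though it could be tested only because it was high in bleomycin libraries. Bleomycin changed much of the lung transcriptome, and 25% of all tested genes passed the same test as higher and 21.5% lay above without overlap. The median log2 fold change of the 9 genes was 1.57, against -0.01 over all tested genes. Ranked by log2 fold change among the 3834 genes called higher, Spp1 stood 53rd, Trem2 85th, Tm4sf19 140th, Gpnmb 298th and Fabp5 3006th. Together the 9 genes took 0.238% ± 0.0105 (SD, n = 4) of all TPM in control lungs and 0.739% ± 0.025 (SD, n = 5) in WT bleomycin lungs.

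**Figure D1:**
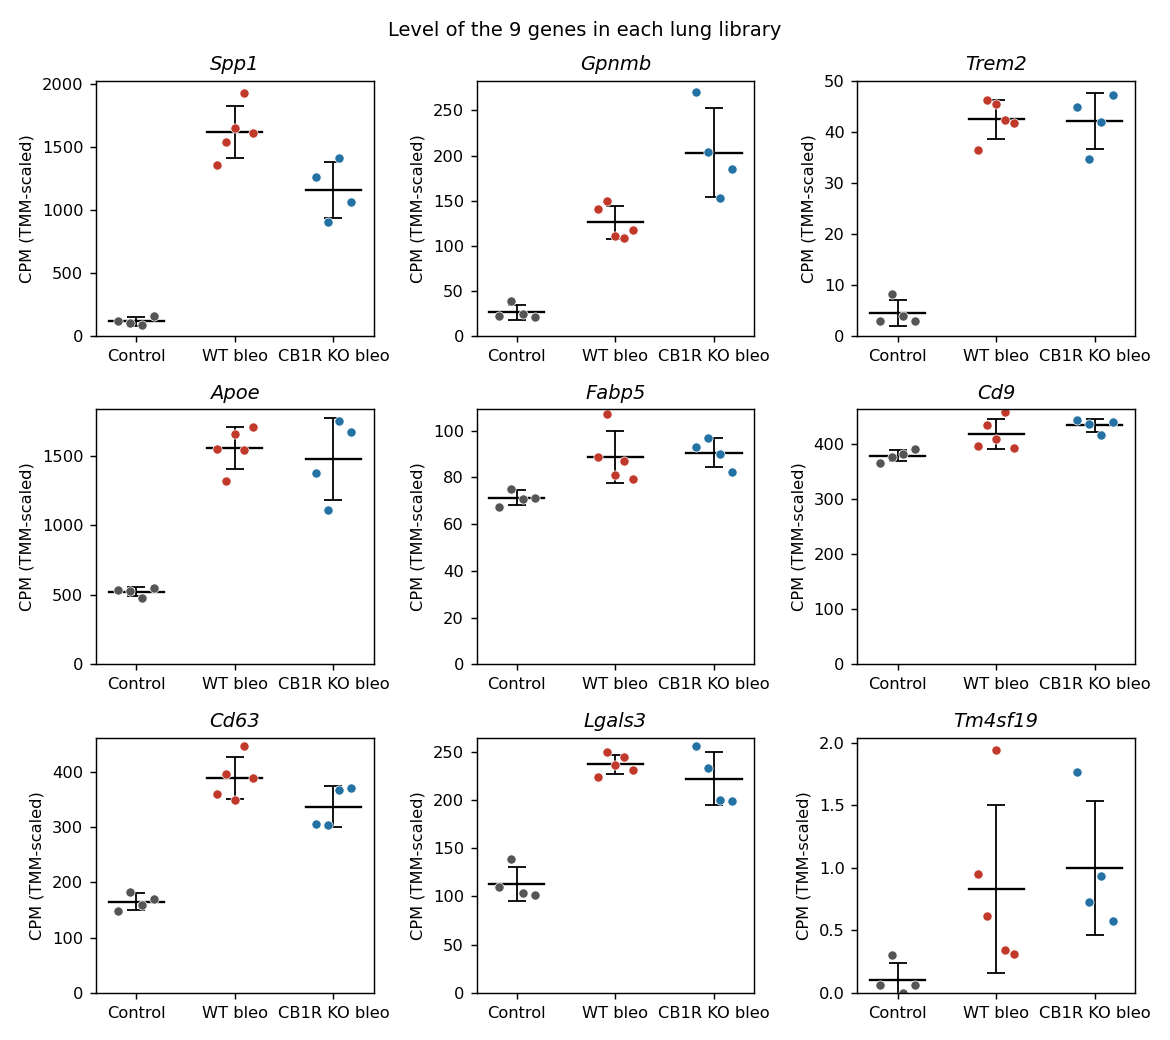
Level of each of the 9 genes in each lung library, in TMM-scaled CPM on an axis that starts at 0. Each point is 1 library, the bar is the group mean and the whiskers 1 SD (n = 4 Control, 5 WT bleo, 4 CB1R KO bleo). All bleomycin libraries lie above all control libraries in every panel, Gpnmb runs from 109 to 150 CPM in WT and from 153 to 270 CPM in CB1R KO libraries, and Spp1 from 1360 to 1930 and from 908 to 1410 CPM.

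Spp1, the secreted ligand of the group, had the largest rise. In control libraries 3, 21, 24 and 26 it stood at 115, 103, 83.3 and 161 CPM, and in WT bleomycin libraries 4, 2, 5, 4-B2 and 7 at 1360, 1540, 1650, 1930 and 1610 CPM. The lowest bleomycin library thus lay far above the highest control. The fold was 14.0 (log2 fold change 3.81, SE 0.20, edgeR adjusted p = 2.2e-08). On the length-scaled TPM values Spp1 moved from rank 818 to rank 37 of all genes in the table, at 133 ± 35.6 TPM (SD, n = 4) in control and 1900 ± 191 TPM (SD, n = 5) in WT bleomycin lungs.

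Trem2 and its ligand Apoe rose together with it. Trem2 stood at 2.91, 8.23, 3.84 and 2.90 CPM in control libraries 3, 21, 24 and 26, and at 36.6, 46.3, 45.5, 42.4 and 41.8 CPM in WT bleomycin libraries 4, 2, 5, 4-B2 and 7, 9.46-fold higher (log2 fold change 3.24, SE 0.24, edgeR adjusted p = 1.96e-07). Control 21 was the highest control, while the 5 bleomycin libraries lay close together. Apoe stood at 536, 528, 479 and 551 CPM in the controls and at 1550, 1320, 1660, 1540 and 1710 CPM after bleomycin in the same order (log2 fold change 1.57, SE 0.12, edgeR adjusted p = 2.84e-07). Its control libraries differed little from each other, and its TPM was the highest of the 9 genes in all 3 groups.

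Gpnmb rose less than Spp1 and Trem2 in wildtype lungs. It stood at 22.2, 38.6, 24.1 and 20.6 CPM in control libraries 3, 21, 24 and 26, and at 141, 150, 111, 109 and 118 CPM in WT bleomycin libraries 4, 2, 5, 4-B2 and 7. Control 21 was again the highest control, and the groups did not overlap. The fold was 4.77 (log2 fold change 2.25, SE 0.20, edgeR adjusted p = 8.49e-07).

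Control 21 also held the highest sum of 12 markers of alveolar macrophages, the resident macrophages of the air spaces, none of which was at 0 in any group. The sum was 2080 CPM there and between 797 and 909 CPM in the other 3 controls, and most of that gap was 1 gene, the secreted chitinase-like protein Chil3, at 1560 CPM against 375, 447 and 455 CPM. Without Chil3 the other 11 markers summed to 525 CPM in Control 21 and to 422, 432 and 454 CPM in the other controls. The part of these cells in the Trem2 and Gpnmb of that library was not tested. Without Control 21 the bleomycin log2 fold change was 3.72 for Trem2 and 2.50 for Gpnmb.

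Among the other members, the endosomal tetraspanin Cd63 rose from 165 ± 15.2 CPM (SD, n = 4) to 388 ± 37.8 CPM (SD, n = 5), with a log2 fold change of 1.23 (SE 0.09, edgeR adjusted p = 2.39e-07). Lgals3 rose from 113 ± 17.6 CPM to 237 ± 9.96 CPM, with a log2 fold change of 1.07 (SE 0.10, edgeR adjusted p = 1.32e-06). Fabp5 rose by far less, from 71.2 ± 3.18 CPM to 88.6 ± 11.1 CPM (log2 fold change 0.32, SE 0.08, edgeR adjusted p = 0.00611). The surface tetraspanin Cd9 was at 380 ± 9.77 CPM in control and 419 ± 27.5 CPM in WT bleomycin lungs, a log2 fold change of 0.14 (SE 0.06) whose edgeR adjusted p of 0.0502 lay just past the threshold. The mouse annotation also lists processed pseudogenes of Cd9, Cd63 and Fabp5 that the protein-coding table does not hold, so how their reads were assigned is uncertain for these 3 genes.

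Tm4sf19 was the rarest member. It had 1, 5, 0 and 1 estimated counts in control libraries 3, 21, 24 and 26, and 15, 10, 31, 5 and 5 in WT bleomycin libraries 4, 2, 5, 4-B2 and 7. The lowest bleomycin libraries and Control 21 thus held the same count, and they were separated only after scaling to library size (0.309 and 0.346 against 0.30 CPM). Control counts were too low for the filter, so Tm4sf19 could be tested only because it was high in bleomycin libraries. The log2 fold change was 2.88 (SE 0.79, edgeR adjusted p = 0.00765), became 4.13 without Control 21, and was 0.82 on log2(TPM + 1), where the added 1 is as large as the level itself.

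The same genes were higher in CB1R KO bleomycin than in control lungs. All 9 passed the test as higher, against 19% of all tested genes, and all 9 had every knockout library above every control, against 17.7%. Tm4sf19 is counted among them, though it could be tested only because it was high in bleomycin libraries. This comparison shares its control libraries with the one above, and its knockout libraries with the contrast by which the genes were picked, so it is no separate support for the first. Spp1 had a log2 fold change of 3.33 (SE 0.20, edgeR adjusted p = 1.55e-07), Trem2 of 3.24 (SE 0.24, edgeR adjusted p = 7.1e-07) and Gpnmb of 2.94 (SE 0.21, edgeR adjusted p = 4.69e-07). The wildtype values of Trem2 and Gpnmb were 3.24 and 2.25. Cd9, the member that missed the threshold in wildtype lungs, had a log2 fold change of 0.20 in knockout lungs (SE 0.06, edgeR adjusted p = 0.0193), and whether its bleomycin response differed between genotypes was not tested.

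Between the 2 bleomycin groups, Spp1 and Gpnmb lay on opposite sides, which is how they were chosen. Spp1 stood at 1260, 908, 1410 and 1060 CPM in CB1R KO libraries 8, 9, 10 and 11, of which 8, 9 and 11 were below all 5 WT bleomycin libraries and 10 was inside their range. Its log2 fold change was -0.48 (SE 0.17). Gpnmb stood at 270, 204, 153 and 185 CPM in the same libraries, all above the highest WT bleomycin library at 150 CPM, with a log2 fold change of 0.69 (SE 0.18). The nearest libraries were KO 10 and WT 2, which differed by a few CPM.

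Trem2 showed neither pattern. It stood at 44.9, 34.7, 42.1 and 47.4 CPM in CB1R KO libraries 8, 9, 10 and 11, a range that overlapped the wildtype one, and its log2 fold change was -0.00 (SE 0.20). Differences of the other members between the 2 bleomycin groups ran from -0.20 for Cd63 (SE 0.09) to 0.19 for Tm4sf19 (SE 0.55), and all of these overlapped between the groups. The median of the 9 log2 fold changes was -0.00, and 4 were positive. Over all tested genes, 0.979% passed the test in this comparison and 5.6% did not overlap between the groups, figures from which nothing is read here, since Gpnmb was picked for its difference.

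**Figure D2:**
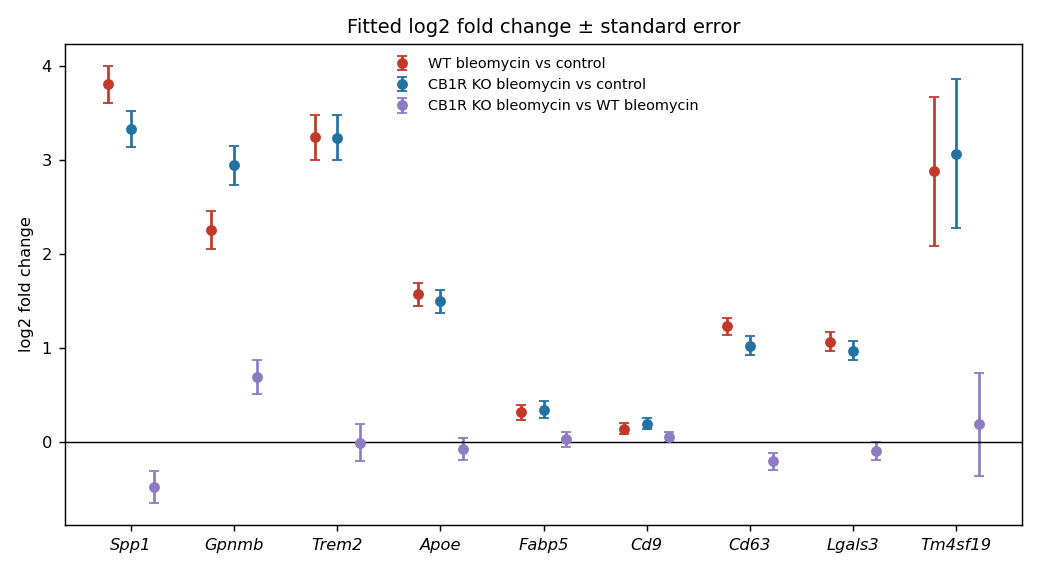
Fitted log2 fold change of each gene in the 3 comparisons, with whiskers of 1 standard error. Spp1, Gpnmb and Trem2 stand at 3.81, 2.25 and 3.24 in WT bleomycin against control, and the values of CB1R KO against WT bleomycin, shown as a description, lie between -0.48 for Spp1 and 0.69 for Gpnmb.

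Expressed as the rise over control in CPM, the knockout lungs held 69.6% of the wildtype rise for Spp1, 99.4% for Trem2 and 177% for Gpnmb. The remaining members ran from 76.9% for Cd63 to 141% for Cd9. Gpnmb also changed its place in the order of the genes by TPM. In control lungs the order was Apoe, Cd9, Cd63, Lgals3, Spp1, Fabp5, Gpnmb, Trem2 and Tm4sf19, and the libraries of Lgals3 and Spp1, of Spp1 and Fabp5, and of Gpnmb and Trem2 overlapped. In WT bleomycin lungs Spp1 moved to the second place, with libraries overlapping those of Apoe, and Trem2 stood at 68.7 ± 6.15 TPM (SD, n = 5) next to Gpnmb at 57.0 ± 10.6 TPM, again with overlap. In CB1R KO lungs Gpnmb stood at 94.3 ± 25.6 TPM (SD, n = 4) and Trem2 at 70.1 ± 8.78 TPM, so that their means changed places while their libraries still overlapped. Cd63 and Cd9 also changed places, Cd63 being above Cd9 in WT bleomycin and below it in CB1R KO lungs with overlap in both. All other neighbours in these orders did not overlap.

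The ratio of Spp1 to Gpnmb CPM put both genes in 1 number per library. It was 5.19, 2.66, 3.45 and 7.84 in control libraries 3, 21, 24 and 26, then 9.63, 10.2, 14.8, 17.7 and 13.7 in WT bleomycin libraries 4, 2, 5, 4-B2 and 7, and 4.67, 4.44, 9.25 and 5.71 in CB1R KO libraries 8, 9, 10 and 11. All knockout ratios were below all wildtype bleomycin ratios, a direction fixed by the choice of these genes, and they overlapped those of the controls. Library 10 of the knockouts and library 4 of the wildtypes were the closest pair.

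**Figure D3:**
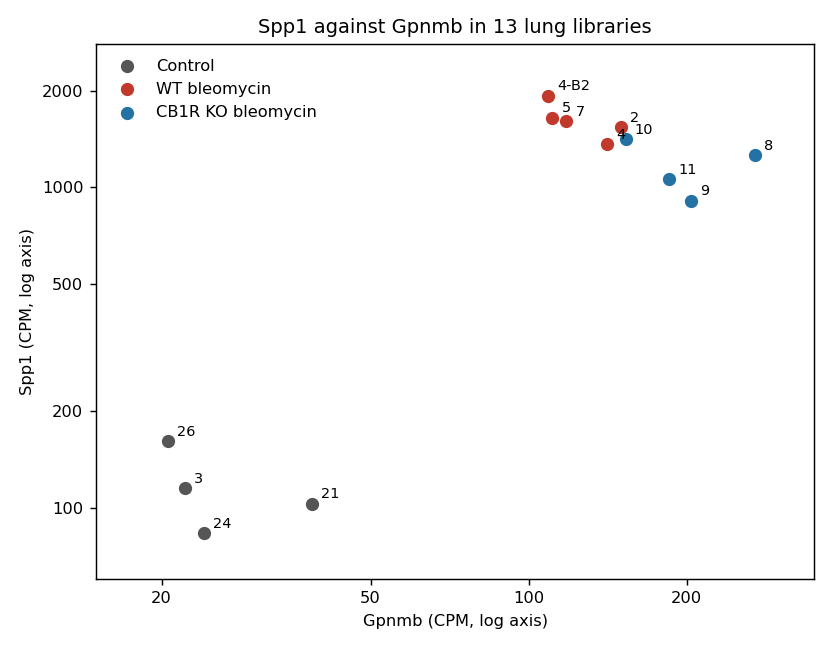
Spp1 against Gpnmb in each of the 13 libraries, both in CPM on log axes, with the library number beside each point. Controls lie at the lower left, the WT bleomycin libraries at 109 to 150 CPM of Gpnmb, and the CB1R KO libraries to their right at 153 to 270 CPM, with replicate 10 next to wildtype replicates 2 and 4.

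The direction of Gpnmb in the knockouts was how it was chosen, so its place among other genes is given as background only. Of the 3834 genes raised by bleomycin in wildtype lungs, 15.6% had a positive log2 fold change in CB1R KO against WT bleomycin, 0.339% (13 genes, Gpnmb among them) had all knockout libraries above all wildtype ones, and 9.7% (372 genes) had all of them below. These counts use the same wildtype libraries on both sides, and nothing is read from them about Gpnmb.

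Gpnmb and Spp1 were also set against Cd68, a lysosomal protein of macrophages, again as a description. Cd68 itself rose with bleomycin (log2 fold change 1.37, SE 0.14, edgeR adjusted p = 2.4e-06) and differed between the 2 bleomycin groups by -0.06 (SE 0.13, edgeR adjusted p = 0.839). The ratio of Gpnmb to Cd68 CPM ran from 0.526 to 0.672 in control, from 0.929 to 1.25 in WT bleomycin and from 1.31 to 2.29 in CB1R KO bleomycin libraries, without overlap. The ratio of Spp1 to Cd68 ran from 11.8 to 19.5 in WT and from 8.81 to 12.1 in CB1R KO bleomycin libraries, with overlap.

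Of the 8 pan-macrophage markers 6 rose with bleomycin in wildtype lungs and Mertk fell, against 25% and 23.9% of all tested genes that rose and fell. The 8 summed to between 5570 and 6340 CPM in control, 6630 and 9210 CPM in WT bleomycin and 9440 and 10500 CPM in CB1R KO libraries, so every knockout library was above every wildtype one. Lyz2 made up most of this sum, at 5850 ± 806 CPM (SD, n = 5) in WT bleomycin and 7820 ± 489 CPM (SD, n = 4) in CB1R KO lungs (edgeR adjusted p = 0.0639), and its reads can be shared with the type II cell gene Lyz1. Between the bleomycin groups edgeR called 0 of the 8, with 2 at an unadjusted p under 0.05, and DESeq2 called 1 on all libraries and 2 on the 2 groups. Without Lyz2 the other 7 summed to between 741 and 934 CPM in control, 1820 and 2260 CPM in WT bleomycin and 1810 and 2240 CPM in CB1R KO libraries. Of 12 markers of monocyte-derived and interstitial macrophages 9 rose with bleomycin, beside the same 25% of all tested genes. Between knockout and wildtype bleomycin lungs 0 of the 12 passed edgeR's quasi-likelihood test, 5 had an unadjusted p under 0.05, and DESeq2 on the 2 groups called 1. Their sum ran from 1350 to 1580 CPM in WT bleomycin libraries, and was 1010, 943, 1410 and 1180 CPM in CB1R KO libraries 8, 9, 10 and 11. For this list, as for Spp1, libraries 8, 9 and 11 were below all wildtype libraries and library 10 was within their range. That split was not particular to this list. Type I cell markers summed to 4760, 4630, 3540 and 4330 CPM in CB1R KO libraries 8, 9, 10 and 11, against 3380 to 3990 CPM in WT bleomycin. Alveolar fibroblast markers summed to 3630, 3490, 2120 and 2580 CPM against 1850 to 2370 CPM. The part of these lists in the level of Spp1 was not tested. Gpnmb was above the wildtype range in all 4 knockout libraries.

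Of 12 alveolar macrophage markers 2 rose and 5 fell with bleomycin in wildtype lungs, again beside 25% and 23.9% of all tested genes, and between the bleomycin groups edgeR called 0, with 5 at an unadjusted p under 0.05, and DESeq2 called 3. They summed to 866 to 1350 CPM in WT and 833 to 1390 CPM in CB1R KO libraries. KO 8, the library with the most Gpnmb, had the lowest of these sums, of which 434 CPM was Chil3. Without Chil3 it held 400 CPM, above WT bleomycin libraries 5 and 7 at 361 and 333 CPM. The 8 activated fibroblast markers, of which all rose with bleomycin, summed to 5100 to 7270 CPM in WT and 3600 to 5730 CPM in CB1R KO libraries, where edgeR called 0 of 8, with 6 at an unadjusted p under 0.05, and DESeq2 called 4. Lrrc15, among these fibroblast markers, passed the filter on low counts only through bleomycin libraries. Of 8 type II cell markers 4 were called higher in CB1R KO than in WT bleomycin lungs, against 0.359% of all tested genes. The 8 summed to 11800 to 13500 CPM in WT and 13700 to 21600 CPM in CB1R KO libraries. Adipocyte markers summed to 21.1 to 96.7 CPM in WT and 46.2 to 179 CPM in CB1R KO libraries, and the library with the most Gpnmb, KO 8, had the lowest sum of the 4. Other lists, too, did not overlap between the bleomycin groups. The 7 cardiac muscle markers summed to 116 to 447 CPM in WT and 458 to 812 CPM in CB1R KO libraries, and the 8 T and NK cell markers to 43.7 to 65.6 CPM and 70.1 to 76.7 CPM. Of the 8 T and NK cell markers 2 were called higher in CB1R KO lungs by edgeR, again beside 0.359% of all tested genes. The part of these shifts in the levels of Spp1 and Gpnmb was not tested.

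**Figure D4:**
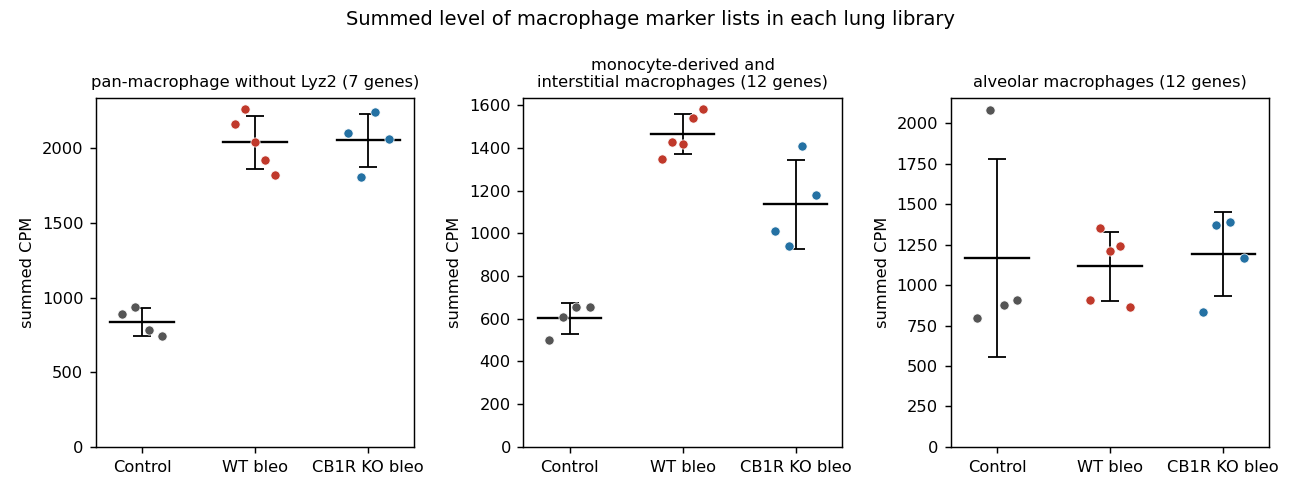
Summed CPM of 3 macrophage marker lists in each library, on axes that start at 0, with the group mean as a bar and 1 SD as whiskers (n = 4 Control, 5 WT bleo, 4 CB1R KO bleo). The 7 pan-macrophage genes overlap between the bleomycin groups, 3 of 4 CB1R KO libraries lie below all WT libraries for the monocyte-derived list, and Control 21 lies at 2080 CPM for the alveolar macrophage list, of which 1560 CPM is Chil3.

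The receptors and proteases of osteopontin, listed together with thrombomodulin, which is neither, changed in both directions. Of 13 tested genes 8 rose and 3 fell in wildtype lungs, against 25% and 23.9% of all tested genes, and their median log2 fold change was 0.65. The receptors Cd44 (log2 fold change 0.86, SE 0.08), Itgav (0.76, SE 0.08) and Itgb3 (0.65, SE 0.17) rose, as did Itgb6 (1.77), Itga5 (1.19) and the protease Mmp3 (1.72), whereas Mmp9 (-1.82), Itga8 (-1.30) and thrombomodulin, Thbd (-0.95), fell. Between the bleomycin groups 1 of the 13 was called higher and 2 lower in CB1R KO lungs, against 0.359% and 0.62% of all tested genes. Mmp3, which cleaves osteopontin, was at 29.8 ± 4.86 CPM (SD, n = 4) against 62.0 ± 13.1 CPM (SD, n = 5), and Itga5 at 123 ± 15.2 CPM against 172 ± 16.8 CPM. Their edgeR adjusted p were 0.0177 and 0.0281, and that of Thbd, 1.40-fold higher, was 0.0416. Cd44, Itgav and Itgb3 did not pass in this comparison, with log2 fold changes of -0.14, -0.19 and -0.27. Of the other bone matrix relatives of Spp1, Dspp and Dmp1 were at 0.03 and 0.432 CPM in control and at 1.69 and 1.77 CPM in WT bleomycin lungs, both called higher, and Ibsp and Mepe had too few reads to be tested. Dspp and Dmp1 passed the filter on low counts only through bleomycin libraries.

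Around Trem2, signalling and shedding genes and members of its receptor family were taken as 1 list. Of its 18 tested genes 5 rose and 5 fell after bleomycin, against 25% and 23.9% of all tested genes, and their median log2 fold change was 0.00. Those that rose were Tyrobp, Vav1, Adam10, Adam17 and Ms4a7, and those that fell were the signalling gene Vav3 and 4 receptors of the Trem family, Trem3, Treml1, Treml2 and Treml4. Between the bleomycin groups edgeR and DESeq2 each called 0, with 1 at an unadjusted p under 0.05. The adaptor Tyrobp rose by 0.86 (SE 0.12, edgeR adjusted p = 3.5e-05), far less than the 3.24 of Trem2, so the ratio of Trem2 to Tyrobp CPM went from between 0.0367 and 0.133 in control to between 0.325 and 0.39 in WT bleomycin libraries. Adam17, a protease that sheds the receptor, rose by 0.62 and Ms4a7 by 2.81, while Treml1 had -1.61, Trem3 -1.58 and Treml4 -1.20.

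For Gpnmb, 6 of 11 tested partners and MiT/TFE regulators rose with bleomycin and 1 fell, against 25% and 23.9% of all tested genes. The factors Tfec (log2 fold change 1.52, SE 0.22), Mitf (0.47, SE 0.08) and Tfe3 (0.39, SE 0.06) rose, Tfeb differed by -0.14 (SE 0.08, edgeR adjusted p = 0.133), and the paralogue Pmel by -0.39 (SE 0.19, edgeR adjusted p = 0.094). Rragd, a GTPase that holds these factors at the lysosome, rose by 0.44, and Flcn, which acts with it, fell by 0.44. Between the bleomycin groups edgeR's quasi-likelihood test called 0 of the 11, with 2 at an unadjusted p under 0.05, and DESeq2 called 1. Rragd had the largest value there, 0.37 (SE 0.10, edgeR adjusted p = 0.0955), with all knockout libraries above all wildtype ones, and Tfec, Mitf and Tfe3 had -0.23, 0.03 and -0.16.

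Relatives of the remaining members moved less uniformly. Of 15 tetraspanins and partners 7 rose and 3 fell with bleomycin, against 25% and 23.9% of all tested genes. Cd81 rose by 0.29 and Tspan7 fell by 1.12. The largest rise was in Timp1, a protease inhibitor that binds Cd63, at 5.18 ± 3.07 CPM (SD, n = 4) in control and 125 ± 19.9 CPM (SD, n = 5) in WT bleomycin lungs. In CB1R KO lungs Timp1 was at 45.3 ± 21.4 CPM, below WT bleomycin in every library (log2 fold change -1.46, SE 0.29, edgeR adjusted p = 0.0314). Of 7 tested galectins 3 rose, among them Lgals1 (log2 fold change 1.67, SE 0.13), and 3 fell, beside the same shares of all tested genes. Lgals1 was likewise lower in CB1R KO than in WT bleomycin lungs, at 168 ± 34.9 against 275 ± 26.9 CPM (edgeR adjusted p = 0.0219), without overlap, next to Lgals3 at 222 ± 27.7 against 237 ± 9.96 CPM, which overlapped.

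Fabp5 was the one fatty acid binding protein of those tested that rose. Of the 4 others 3 fell, against 23.9% of all tested genes. These were Fabp1 by 3.67, Fabp12 by 2.10 and Fabp3 by 1.53 on the log2 scale. Fabp12 passed the filter on low counts through control libraries, the group where it was high. Fabp4 did not pass (-0.73, SE 0.48, edgeR adjusted p = 0.224). Of 16 Apoe receptors and cholesterol export genes 6 rose and 6 fell, against 25% and 23.9% of all tested genes. Apoc2 (1.21), Lrp8 (0.98), Lpl (0.94) and the exporter Abca1 (0.50) rose, Pltp (-0.96), Vldlr (-0.78) and Mylip (-0.60) fell, and Abcg1 differed by 0.09 (SE 0.10, edgeR adjusted p = 0.455). Vldlr and Pltp were higher in CB1R KO than in WT bleomycin lungs, by 0.45 and 0.38 (edgeR adjusted p = 0.048 and 0.0416). Of the relatives of Tm4sf19, Tm4sf5 rose by 2.06 and Tm4sf1 fell by 0.40.

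Lists of lipid-associated macrophage genes and of osteoclast genes were also examined. In the first list 13 of 19 tested genes rose and 2 fell, beside 25% and 23.9% of all tested genes (median log2 fold change 1.04), led by Mmp12 (2.98), Mmp14 (2.48) and Hmox1 (1.58), with Cst7 (-0.66) and the fatty acid receptor Cd36 (-0.45) falling. In the second 8 of 13 rose and 0 fell (median 0.99), led by the fusion protein Dcstamp (2.97), Calcr (2.10) and the collagen-degrading protease Ctsk (2.10), while the growth factor Csf1 differed by 0.15 (SE 0.11, edgeR adjusted p = 0.26) and its receptor Csf1r rose by 0.47. Dcstamp and Calcr were too low in control lungs to pass the filter on low counts without the bleomycin libraries. Between the bleomycin groups edgeR called 0 genes of either list, with 7 and 3 at an unadjusted p under 0.05, and DESeq2 on the 2 groups called 1 and 0. The 4 calls lower and 3 higher over the 11 related lists in this comparison depended on the libraries used. Leaving out 1 library at a time gave 0 to 7 lower and 0 to 5 higher, with 0 of each without KO 8, KO 9 or KO 11 and 7 and 5 without KO 10.

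**Figure D5:**
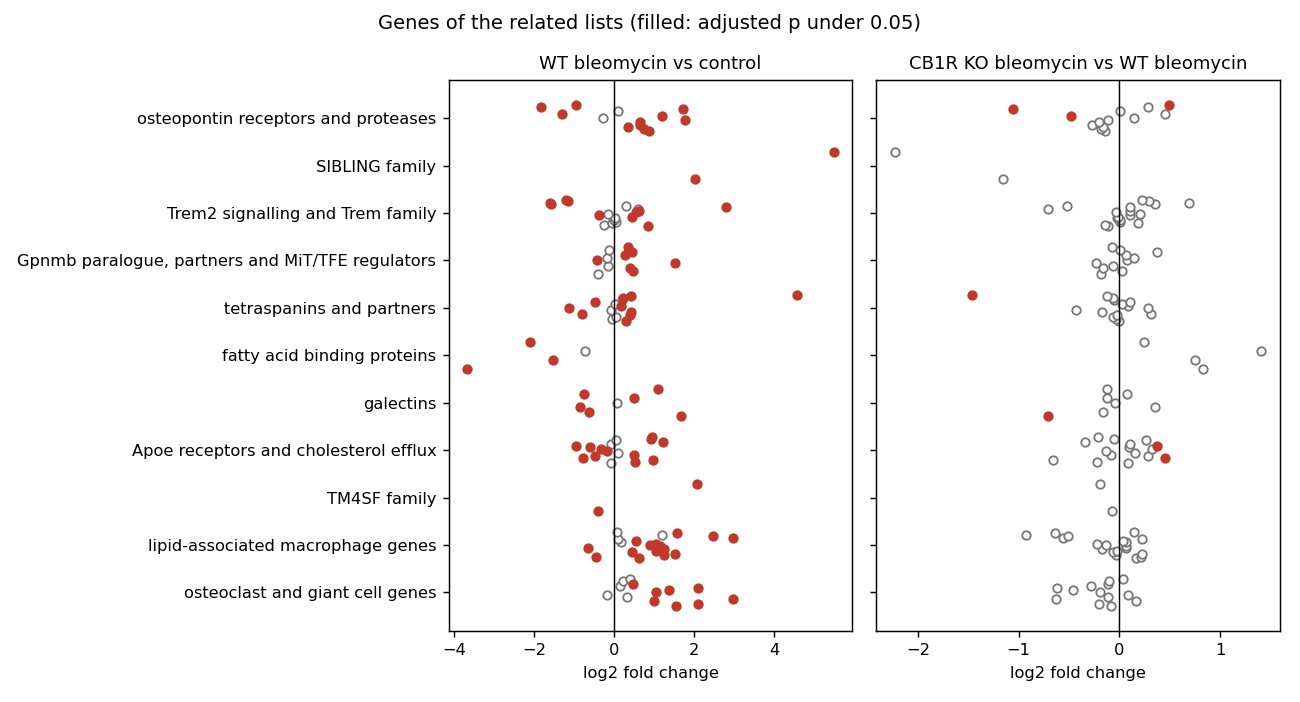
Log2 fold change of every tested gene in the 11 lists of related genes, on the left for WT bleomycin against control and on the right for CB1R KO against WT bleomycin, the 2 panels having different axis ranges. Each point is 1 gene, filled where its adjusted p is under 0.05; on the right 7 points are filled, of which 4 are lower and 3 higher in CB1R KO.

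The genes whose level followed each of the 3 leading members most closely over the 13 libraries differed between them. Pearson r of log2 CPM was computed for 13580 genes and is given as a description, since all points share the same 3 groups. For Spp1 the 5 nearest genes were Syt12 (r = 0.994), Rhou, Chsy3, Thbs4 and Tmem189 (0.987). For Gpnmb they included Stra6l (0.983), the lysosomal protease Ctsd (0.973), Zranb3 and Smarca1 (0.971). For Trem2 they were Tbxas1 (0.993), Mmp2, the lysosomal proteins Pld3 and Ctss, and Lcn2 (0.988). After subtraction of the group means, the highest r were 0.956 for Stra6l with Gpnmb, 0.882 for Rhou with Spp1 and 0.857 for Tbxas1 with Trem2. The lowest were 0.466 for Smarca1 with Gpnmb, 0.555 for Chsy3 with Spp1 and 0.738 for Lcn2 with Trem2. Ctsd had 0.482 with Gpnmb.

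The members form 36 pairs. Deviations from the group means over the 13 libraries had r = 0.83 for Gpnmb and Lgals3, 0.516 for Spp1 and Apoe, and -0.413 for Spp1 and Gpnmb. Lower values were found for Apoe with Fabp5 (-0.695), with Gpnmb (-0.437) and with Lgals3 (-0.425). For Gpnmb and Trem2 this r was 0.645 over all libraries and -0.03 over the 9 bleomycin libraries, where Control 21 takes no part. Spp1 and Gpnmb had -0.394 over the 9 bleomycin libraries, where lower values included -0.745 for Fabp5 and Apoe and -0.679 for Cd63 and Tm4sf19.

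Fits by the style of the labels are given as a description, since the direction of Spp1 and Gpnmb is how they were chosen. All CB1R KO labels are lower-case, so style and genotype are not balanced. With the 10 libraries of lower-case labels alone, CB1R KO against WT bleomycin gave a log2 fold change of -0.39 for Spp1 (SE 0.15), 0.60 for Gpnmb (SE 0.21) and -0.01 for Trem2 (SE 0.22). With the style as a term in the fit it was -0.32, 0.57 and -0.08. WT bleomycin against control gave 3.92, 2.25 and 3.10 for the same genes in the lower-case libraries (edgeR adjusted p = 9.78e-07, 5.3e-05 and 2.41e-05).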

How the data were processed

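Lung RNA of 13 mice was measured by poly(A)-selected RNA sequencing on an Illumina HiSeq, in 4 control, 5 WT bleomycin and 4 CB1R KO bleomycin libraries grouped by the labels. The authors quantified reads with kallisto on the Ensembl mouse reference (GRCm39 per the labels' processing notes, no tool version given) and summed the output over the protein-coding transcripts of a gene. The deposited tables hold estimated counts, not normalized and not whole in 70.2% of values, and TPM, which the authors' kallisto scaled for transcript length and library total. The tables of single samples repeat them. In the TPM table, 1 sample column matching no sample here was not used.

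Estimated counts were rounded. Of 20270 genes, filterByExpr kept 15315, which were fitted in 3 groups with TMM factors and edgeR 4.0.16 (R 4.3.3, quasi-likelihood test, Benjamini-Hochberg over all tested genes, threshold 0.05). Tm4sf19, Dspp, Dmp1, Tm4sf5, Calcr, Dcstamp and Lrrc15, low in control lungs, passed this filter through bleomycin libraries. Fabp12, low in bleomycin lungs, passed it through control libraries. SE is the absolute log2 fold change over the square root of F, CPM is TMM-scaled, and log2 CPM used a prior count of 2. Alternatives were no or a stricter count filter (10), RLE and upper-quartile normalization, DESeq2 1.42.0, limma 3.58.1 on log2 TPM with a pseudocount of 1 or 0.1, edgeR on 2 groups, the label style as a term, its lower-case libraries alone, CB1R KO replicate 11 thinned, and each library left out. On simulated data for WT bleomycin against control with 15120 genes, 87 of 100 genes changed 2-fold and 98 of 100 changed 4-fold were called with the right sign, with 5 calls among unchanged genes. Plots used Python 3.11.15 with matplotlib 3.10.9. The standard error beside each value gives its precision, and p-values weigh a group difference against the spread between these libraries.

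The members and lists were chosen with earlier results of these data known. The text names the 9 members, fixed core partners, up to 3 genes per direction with the largest change past the threshold in WT bleomycin against control from each of 11 related lists, list genes called between CB1R KO and WT bleomycin, and the 5 nearest genes by r for Spp1, Gpnmb and Trem2. Of the genes this rule selects, 1 is not reported here. Tfe3, Tfeb, Csf1r, Rragd in the knockout comparison and the marker lists' single genes are given as background to a member. Promoters were matched by symbol in RefSeq sequences of GRCm38.p6, another build than that of the reads, and used for motifs only.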

Additional observations from a re-analysis of the deposited data

How the results depend on the processing

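Over 25 alternatives, 13 of which left out 1 library, 7 to 9 members were called higher in WT bleomycin libraries than in control libraries (7 with edgeR on the 2 groups compared) and 8 to 9 in CB1R KO bleomycin than in control lungs, and no value changed its direction among those called. Cd9, with an adjusted p of 0.0502, passed the threshold in wildtype lungs under 10 of them, DESeq2 and limma included, its adjusted p ranging from 0.0208 to 0.113. Tm4sf19 was removed by the filter of 10 counts in every library. Between CB1R KO and WT bleomycin lungs, given without a test for members, the log2 fold change ranged from -0.59 to -0.32 for Spp1, from 0.52 to 0.80 for Gpnmb and from -0.08 to 0.08 for Trem2. The low counts of Tm4sf19 limit its precision.

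Calls of related genes in that comparison depended on the fit. The 3 called higher became 7 with DESeq2 on all libraries, 6 with DESeq2 on 2 groups, 1 with limma on log2 TPM with either pseudocount, 1 with edgeR on 2 groups, and 0 with the style of the labels as a term or with lower-case libraries alone. The 4 called lower became 7 with DESeq2 on 2 groups, 1 with the style of the labels as a term and 0 with lower-case libraries alone. Without 1 library at a time the counts ran from 0 to 5 higher and from 0 to 7 lower. Over all genes, the 150 calls ran from 1 without CB1R KO replicate 9 to 653 without CB1R KO replicate 10, and were 640 with DESeq2. The cause was not tested. Of the 5 genes nearest to Spp1 and to Gpnmb, 3 were the same with a mean log2 CPM of at least 3, as was the lowest number with log2(TPM + 1), and 4 to 5 were the same for Trem2. No paired analysis was possible because the groups share no replicate numbers.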
